A study of Homo sapiens and Mus musculus with 19 samples.

Results

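Tmem176a and Tmem176b are 2 neighbouring genes whose signals were far higher in mouse Lewis lung carcinoma cells carrying an activated IKKβ than in the same cells carrying the empty vector. They were selected on that rise in signal between the IKKb and MiG arrays, so their values in the mouse cells are given as a description, and tests are kept for the human lines. All probe sets annotated to either gene in mouse or human were taken, which gave 4 of the 40681 gene symbols that the arrays name (2 mouse and 2 human) and 7 of the 99776 probe sets in the series. The mouse table held 4 of them among 45101 probe sets, 3 for Tmem176a and 1 for Tmem176b. The human table held 3 among 54675, 1 for TMEM176A and 2 for TMEM176B.

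TMEM176A and TMEM176B are multi-pass membrane proteins related to the MS4A family, sit side by side in the genome, and can form cation channels in membranes inside the cell. In mice they are best known from dendritic cells, macrophages and lymphocytes that carry RORγt. TMEM176B has been described in mice as a brake on the NLRP3 inflammasome, the complex that activates caspase-1 and matures interleukin-1β. IKKβ is the kinase that marks the inhibitor IkBα for destruction and so frees NF-kB to enter the nucleus.

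Cells carried a retrovirus named IKKb, which expresses IKKβ with serine-to-glutamate changes that activate it, and in the human lines also a retrovirus named IkB_SR, which expresses an IkBα super-repressor with serine-to-alanine changes. Control cells carried the empty retrovirus MiG. Cells of all groups were sorted on green fluorescent protein after transduction, and the labels name no clones. The mouse cells, which the labels call LLC-kB OVA, are named LLC below. They were measured on 2 arrays with IKKb and 2 with MiG, and the labels explain neither kB OVA, which all 4 share, nor whether the arrays stand for separate cultures, so p-values there measure only the spread between these arrays. There were 5 human non-small cell lung cancer lines, PC9, HCC827, H358, H23 and A549. Each had 1 array with IKKb, 1 with IkB_SR and 1 with MiG, so the lines are the replicates there. Values are MAS5 signals, a linear intensity for which every array had been brought by the authors to the same trimmed mean, 500. A signal below the 40th percentile of its array, which lay between 28.7 and 44.98 on human arrays and between 30.1 and 39.6 on mouse arrays, is called dim here. Differences are on the log2(signal + 16) scale, which understates changes of dim genes, and signals of different probe sets are not compared with each other.

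A few facts of the whole series bear on these values. Median signals were 51.3 to 76.5 on human and 55.0 to 64.4 on mouse arrays. The probe set of IKKβ itself was 1.14-fold and 1.26-fold higher with IKKb than with MiG in LLC, and its ratio ran from 0.794 to 1.03 in the human lines. The labels do not say from which species the transduced IKKβ came, so these probe sets may not read it, and this does not check the vector labels. The NFKBIA probe set reads the transcript of IkBα. Its signal with IkB_SR exceeded that with MiG in 4 of 5 lines, and the array labelled H23 IkB_SR went the other way at a ratio of 0.782. The log2 differences of that array from H23 MiG were -1.60 for TNFAIP3, -1.03 for RELB and -1.30 for ICAM1, which are also NF-kB feedback genes. Signals of the Dap spike-in control set the H358 IKKb array apart from the others of its line, at 2219 against 611 with IkB_SR and 628 with MiG. They also split the LLC arrays by number, at 1195 on number 1 and 18.0 on number 2 with IKKb, and at 1273 and 19.0 with MiG. The epithelial keratins Krt8 (4554 to 6327) and Krt18 (4664 to 7951) had high signals in the LLC cells. The keratin Krt19 read 17.7 and 4.36 with IKKb, dim on both arrays, and 77.4 and 44.1 with MiG. The fibroblast collagen Col3a1 was also high, at 9899 to 20078, while 4 of 10 fibroblast and endothelial markers were dim on every array. Of the 10 epithelial and lung epithelial markers measured, 4 (Cdh1, Nkx2-1, Napsa and Sftpa1) were dim on all 4 arrays, and Sftpc cleared the 40th percentile on 1. The surfactant gene Sftpb cleared it on all 4 arrays, at 107 and 160 with IKKb and 158 and 88.7 with MiG. Epcam cleared it on 3, at 20.9 and 79.9 with IKKb and 116 and 107 with MiG. With 2 arrays per vector the LLC fit missed small changes and many large ones in simulated data, so a count of 0 calls in LLC does not show that genes did not change.

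The 2 human genes lie head to head on chromosome 7 of GRCh38.p14, TMEM176B at chr7:150791301-150801360 on the minus strand and TMEM176A at chr7:150800769-150805118 on the plus strand, and their annotated spans share 592 bases. RefSeq gives starts of TMEM176B at 150800364 and at 150801360, which lie 405 and 591 bases from the start of TMEM176A. The windows from 250 bases before to 50 bases after the TMEM176A start and the nearer TMEM176B start are shown because the pair moved together in LLC, and they overlap by 96 bases on opposite strands. Capitals mark a match to the NF-kB consensus, searched on both strands.

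TMEM176A chr7:150800519-150800818 (+): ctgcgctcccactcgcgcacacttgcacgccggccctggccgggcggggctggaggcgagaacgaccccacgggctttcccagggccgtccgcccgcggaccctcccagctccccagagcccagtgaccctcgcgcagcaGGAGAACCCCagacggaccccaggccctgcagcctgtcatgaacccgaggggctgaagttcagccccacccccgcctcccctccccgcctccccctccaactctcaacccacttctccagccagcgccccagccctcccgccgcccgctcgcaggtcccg
TMEM176B chr7:150800315-150800614 (-): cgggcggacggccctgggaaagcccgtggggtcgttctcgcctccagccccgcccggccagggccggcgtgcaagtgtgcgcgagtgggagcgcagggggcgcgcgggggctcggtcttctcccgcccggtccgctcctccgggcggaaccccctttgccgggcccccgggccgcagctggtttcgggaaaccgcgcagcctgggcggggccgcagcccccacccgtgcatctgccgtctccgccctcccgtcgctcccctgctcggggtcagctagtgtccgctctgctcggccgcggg

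The TMEM176A window held 1 match to the NF-kB consensus, on the minus strand with its first base 110 bases before the start, and the TMEM176B windows held 0. Of all 35116 RefSeq promoter windows of that length, 5.91% held such a match. The AP-1 motif TGANTCA, searched on both strands, was absent from the windows of both genes and present in 7.71% of all windows. The windows of TMEM176A and of the nearer TMEM176B start were rich in G and C, at 74% and 77.7%, against a median of 58.7% over all windows. A match is a run of letters and not a measured binding site, and these are human sequences, while the large rise was measured in mouse cells.

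In LLC cells all 4 probe sets were many times brighter with IKKb than with MiG. The Tmem176a probe set 1425603_at read 4012 and 3668 on the IKKb arrays, against 268 and 129 on the MiG arrays (numbers 1 and 2 in each case). The Tmem176a probe set 1423909_at read 4963 and 2235 with IKKb, against 407 and 183 with MiG. The third Tmem176a probe set, 1441811_x_at, read 3370 and 2146 with IKKb, against 341 and 151 with MiG. The groups did not overlap for any of the 3 Tmem176a probe sets, and of all mouse probe sets 11.1% had both IKKb arrays above both MiG arrays. In such bulk samples more expressing cells and more RNA per cell cannot be told apart. The Tmem176b probe set 1418004_a_at read 7755 and 6358 with IKKb, against 1118 and 366 with MiG, so here too the lowest IKKb array was above the highest MiG array. With the empty vector too, every one of these signals exceeded the 60th percentile of the array it came from. The lowest, 129 for 1425603_at on MiG number 2, stood at the 61.0th percentile. The Tmem176b probe set stood between the 97.7th and 98.7th percentile of the IKKb arrays and between the 72.3rd and 85.3rd of the MiG arrays.

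**Figure D1:**
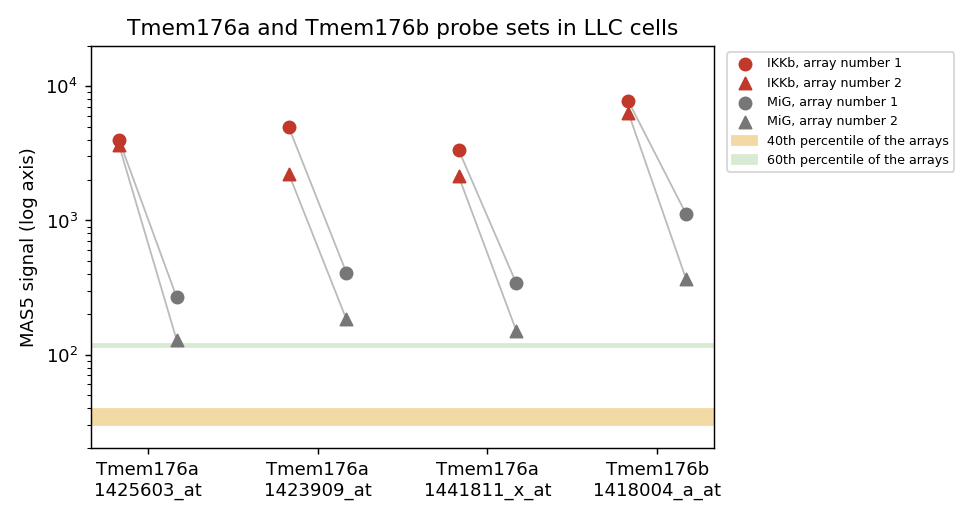
MAS5 signal (log axis) of the 4 mouse probe sets on each LLC array, IKKb at the left and MiG at the right of each pair. Circles are array number 1 and triangles number 2, grey lines join equal numbers, which are not known to pair the arrays, and bands mark the range of the 40th and 60th percentiles of the arrays. All 8 IKKb points lie at 2146 or above and all 8 MiG points at 1118 or below.

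The mean difference was 4.25 for 1425603_at (19.0-fold), 3.53 for 1423909_at (11.5-fold), 3.47 for 1441811_x_at (11.1-fold) and 3.42 for the Tmem176b probe set (10.7-fold), on the log2(signal + 16) scale. The size depended on which MiG array was used, because MiG number 1 was the brighter by 2.08 to 3.05 times in all 4 probe sets. Over the 4 ways of setting an IKKb array against a MiG array, the ratio of Tmem176b signals ran from 5.69 to 21.2, and the 4 probe sets together spanned 5.49 to 31.2. IKKb number 1 was also the brighter of its pair in all 4 probe sets, by 1.09 to 2.22 times. The arrays numbered 1 are those with the high Dap signal, and the part of that in the spread was not tested. Within equal numbers the Tmem176b ratio was 6.94 for number 1 and 17.4 for number 2. The Tmem176a ratio for 1425603_at was 14.97 for number 1 and 28.5 for number 2.

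Among the 12555 mouse genes that passed the filter, and with the brightest probe set standing for each gene, Tmem176a had the 2nd highest and Tmem176b the 5th highest difference in LLC. Mmp9, a secreted protease that cuts matrix, ranked 1st at 4.42. It was dim on both MiG arrays, so its fitted difference is not an exact fold, and it was at least 26.3-fold higher with IKKb than the 40th percentile of the MiG arrays. Saa3, an acute-phase protein, ranked 3rd at 3.62, and Nfkbie, the NF-kB inhibitor IkBε, ranked 4th at 3.53. Traf1, a signalling adaptor of TNF receptors, followed Tmem176b at 3.26. Traf1 was also dim on both MiG arrays and was at least 6.56-fold higher. The 4 probe sets ranked 4th, 7th, 8th and 9th among all 45101. These ranks restate the choice of the genes and are given only to place them.

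**Figure D2:**
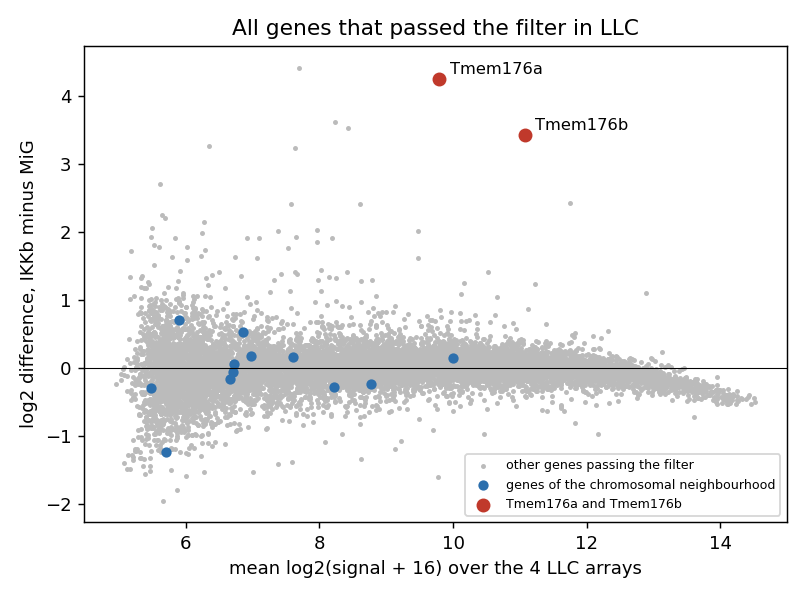
Difference between IKKb and MiG in LLC (vertical axis, log2 of signal plus 16) against the mean level over the 4 arrays (horizontal axis, same scale) for the 12555 genes that passed the filter. Tmem176a at 4.25 and Tmem176b at 3.42 (red) stand above almost all genes of like level. The 12 tested genes of the neighbourhood list (blue), whose mouse positions were not checked, lie between -1.24 and 0.70.

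The genes of the neighbourhood list that could be tested in LLC lay between -1.24 and 0.70. A further 7 were dim on every array and had no test. That list holds the GIMAP family (GTPases known from lymphocytes), the amine oxidase Aoc1, the potassium channel Kcnh2, the nitric oxide synthase Nos3 and others. Only human gene positions were looked up, so some of the listed genes may not lie beside the pair in mouse. Of 21 listed genes 19 had a probe set, 7 of these were dim on all 4 arrays, and 12 passed the filter. In limma 0 of the 12 were higher and 0 lower with IKKb at an adjusted p below 0.05, in a comparison in which 3 of 12555 genes (0.0239%), all higher, were called and 235 had an unadjusted p below 0.05. Their median difference was -0.01, or 0.05 over the 11 without Gimap3, and that of all genes was 0.00401. The extremes were Gimap3 at -1.24, with signals of 8.29 and 31.6 with IKKb against 38.1 and 104 with MiG (above the 40th percentile on the MiG arrays only), and Aoc1 at 0.70, with 39.98 and 86.9 against 57.9 and 13.6. Repin1, a zinc finger protein, read 1207 and 918 with IKKb and 1039 and 878 with MiG, so its groups overlapped.

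The MS4A relatives were low. Of 16 listed genes 14 had a probe set and 6 passed the filter, 0 of them called in either direction, with a median of -0.11 and no signal above 122. The extremes were Ms4a4c at -0.85, which was dim on both IKKb arrays, and Ms4a2 at 0.06. Ms4a4c passed the filter through the MiG arrays alone, and the median of the other 5 was 0.02. Genes of RORγt-positive and dendritic cells, in which the pair is best known, gave no call either: of 10 measured genes 7 passed the filter, 0 were called, and the median was -0.23. The 7 ran from -0.64 for Il17a to 0.49 for Cd74, with 3 above 0. Itgax, the dendritic cell integrin CD11c, read 86.9 and 124 with IKKb and 79.3 and 73.0 with MiG. Ccr6 went the other way, at 45.1 and 46.8 with IKKb and 67.8 and 90.7 with MiG. Of 13 measured markers of leukocytes in general 5 were dim on every array, among them Ptprc, Itgam and Tyrobp. Another 5, Cd68, Cd74, Csf1r, Itgax and Laptm5, were above the 40th percentile on all 4 arrays. None passed the 60th percentile on all arrays, though Cd68 passed it on 3. The summed signal of the list was 505.5 to 729.1 with IKKb and 628.6 to 658.0 with MiG. For this list 6 genes passed the filter, 0 were called, and the median was -0.16. Fibroblast and endothelial markers gave 0 calls among 5 genes with a median of 0.05, and epithelial markers 0 among 5 with a median of -0.49. Krt19 passed the filter through the MiG arrays alone, and the median of the other 4 epithelial markers was -0.44.

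Inflammasome genes were measured because of the known link of TMEM176B to NLRP3. All 11 measured genes of 14 listed passed the filter and 0 were called. The median was 0.40 with Casp4, which passed through the IKKb arrays alone, and 0.26 over the other 10. Nlrp3, the sensor of the complex, read 244 and 223 with IKKb against 100 and 73.9 with MiG, and the groups did not overlap, as in 10.9% of the genes tested. Casp4, the inflammatory caspase that senses bacterial lipopolysaccharide, read 137 and 87.1 with IKKb against 1.59 and 5.06 with MiG. It was dim on both MiG arrays and passed the filter through the IKKb arrays alone. Gsdmd, the pore protein cut by these caspases, read 720 and 398 with IKKb against 301 and 235 with MiG. Il1b and Il18, the cytokines matured by caspase-1, overlapped between the groups, at 75.1 and 42.2 against 34.7 and 44.1 for Il1b, and at 384 and 206 against 319 and 240 for Il18. The adaptor Pycard read 22.8 and 43.5 with IKKb and 36.4 and 5.04 with MiG.

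NF-kB feedback genes served as the yardstick of pathway activity. Of 9 that passed the filter, 1 was called, against the 0.0239% of all genes. Traf1 passed through the IKKb arrays alone, and the differences of the other 8 ran from 0.32 to 3.53 with a median of 1.63. The called gene was Nfkbie, which read 1376 and 976 with IKKb against 67.9 and 107 with MiG (limma adjusted p = 0.0379). That call was lost with scaling by quantile or median, with another filter, with averaged probe sets and without an intensity trend, each of which left 0 genes past the threshold in LLC. Nfkbia, the gene of IkBα, read 12485 and 9722 against 5698 and 4645, a difference of 1.10. Relb, an NF-kB subunit, read 624 and 338 with IKKb against 140 and 95.5 with MiG. Icam1 was dim on all 4 arrays, at 19.0 and 29.7 with IKKb and 14.8 and 13.7 with MiG, and had no test. The differences of Tmem176a and Tmem176b lay at 3.42 to 4.25, beside 0.32 to 3.53 for the feedback genes.

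**Figure D3:**
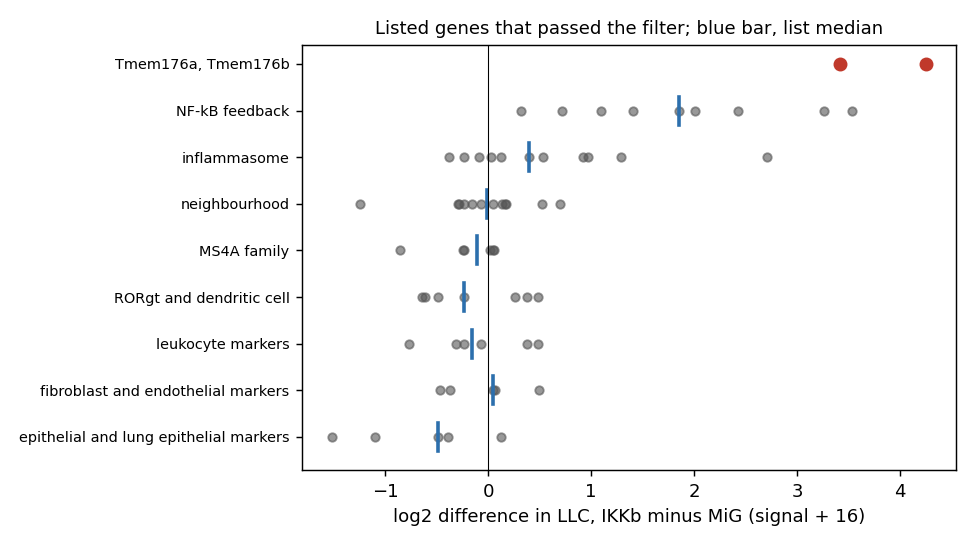
Difference between IKKb and MiG in LLC (horizontal axis, log2 of signal plus 16) for the pair (red) and for the genes of each list that passed the filter (grey points; blue bars are list medians). The pair lies at 3.42 and 4.25, the feedback genes spread from 0.32 to 3.53, and the medians of the other lists lie between -0.49 and 0.40.

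In the human lines both genes were at or near the lower edge of what the arrays measure. Limma called TMEM176B in no comparison of vectors, nor TMEM176A in a fit without a filter. The exact sign-flip test used for TMEM176A could not pass the threshold, because its smallest possible p is 0.0625. That test therefore does not decide whether TMEM176A changed. TMEM176A (218345_at) was above the 40th percentile on 4 of 15 arrays and above the 60th on 0, so it did not pass the filter, which asks for 5 arrays. In A549 it read 79.2 with IKKb and 12.2 with IkB_SR, against 8.22 with MiG. In H23 it read 36.4 with IKKb and 11.2 with IkB_SR, against 6.23 with MiG. In H358 it read 13.8 with IKKb and 21.2 with IkB_SR, against 6.87 with MiG. In these 3 lines the IKKb array was above the MiG array, though only the A549 IKKb array cleared the 40th percentile. In HCC827 the order was opposite, with 14.5 with IKKb and 64.6 with IkB_SR, against 91.5 with MiG. In PC9 it read 6.75 with IKKb and 39.5 with IkB_SR, against 8.05 with MiG.

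The IKKb minus MiG difference of TMEM176A was therefore positive in A549 (1.97), H23 (1.24) and H358 (0.38), and negative in HCC827 (-1.82) and PC9 (-0.08). Its mean was 0.34 ± 1.44 (SD, n = 5 lines), and a two-sided exact sign-flip permutation test gave p = 0.625 (0.938 adjusted over the 9 tests of 3 probe sets and 3 comparisons). IkB_SR against MiG gave 0.40 ± 0.60 (SD, n = 5; exact p = 0.25, adjusted 0.938), with 4 of 5 lines above 0. IKKb against IkB_SR gave -0.06 ± 1.39 (SD, n = 5; exact p = 1). With 5 lines the smallest p this test allows is 0.0625, which is above the threshold, so it could not pass in any comparison. In the limma fit without a filter the adjusted p-values of TMEM176A were 0.958, 0.997 and 0.978 for these comparisons. The mean against MiG rests on single lines: it was -0.07 without A549 and 0.88 without HCC827.

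TMEM176B (220532_s_at) was above the 40th percentile on 11 of 15 arrays and above the 60th on 0. In H358 it read 101 with IKKb and 79.3 with IkB_SR, against 44.6 with MiG. In HCC827 it read 57.6 with IKKb and 75.5 with IkB_SR, against 44.8 with MiG. In both lines the MiG array was the lowest of the 3. In H23 it read 61.5 with IKKb and 68.0 with IkB_SR, against 67.6 with MiG, and the 3 arrays were close to each other. In PC9 it read 31.9 with IKKb and 35.1 with IkB_SR, against 44.8 with MiG. In A549 it read 8.40 with IKKb and 16.3 with IkB_SR, against 5.94 with MiG, dim on all 3 arrays. The vectors overlapped across lines, and IKKb was above MiG in 3 of 5 lines and below it in H23 and PC9.

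**Figure D4:**
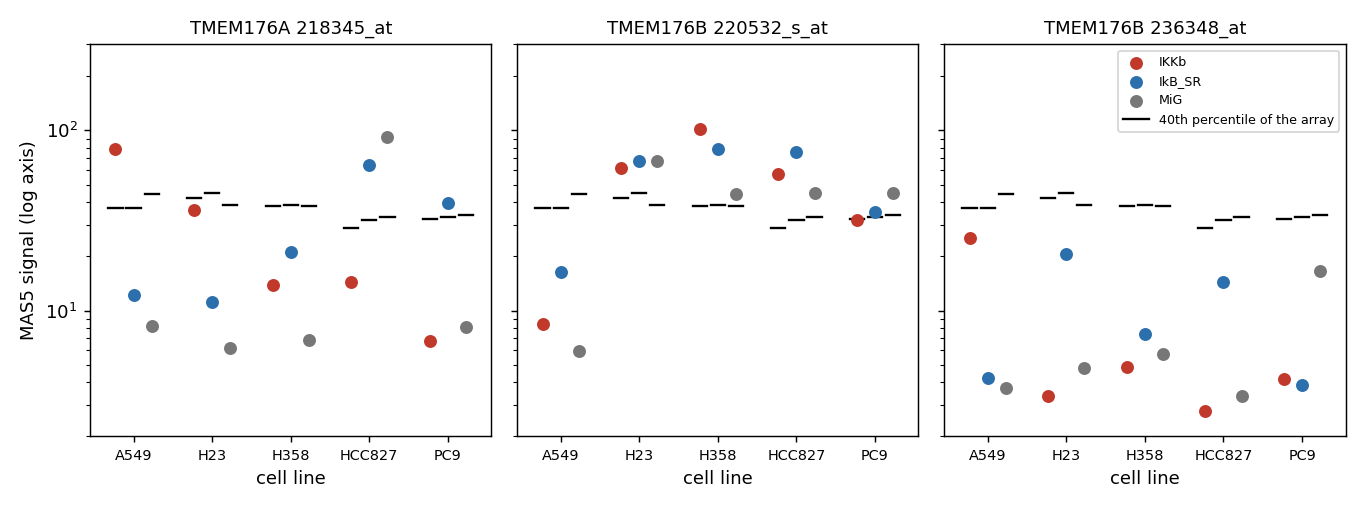
MAS5 signal (log axis) of the 3 human probe sets on each of the 15 arrays, by line and vector (IKKb red, IkB_SR blue, MiG grey); the black bar beside each point is the 40th percentile of that array. TMEM176A lies above its bar on 4 arrays, TMEM176B 220532_s_at on 11 and TMEM176B 236348_at on 0.

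TMEM176B was the member that passed the filter, and limma with the cell line as a block called it in none of the 3 comparisons. IKKb against MiG gave 0.19 ± 0.22 (log2 ± SE; limma adjusted p = 0.946), with a 95% interval of -0.29 to 0.66, or 0.821-fold to 1.58-fold. In that comparison 0 of 15185 genes (0%) were called, and 839 had an unadjusted p below 0.05. IkB_SR against MiG gave 0.31 ± 0.22 (adjusted p = 0.996; interval -0.16 to 0.78), again with 0 genes called (0%) and 662 at an unadjusted p below 0.05. IKKb against IkB_SR gave -0.13 ± 0.22 (adjusted p = 0.850; interval -0.60 to 0.35), while 140 genes (0.922%) were called, 91 higher (0.599%) and 49 lower (0.323%). The difference between mouse and human responses was not itself tested, since the arrays, scales and designs differ. The IKKb difference was 0.95 in H358 and between -0.34 and 0.27 in the other lines, and without the H358 IKKb array, whose Dap signal differed from the other 2 of its line, the estimate was 0.04 (adjusted p = 0.992). The 2nd TMEM176B probe set, 236348_at, was dim on all 15 arrays, between 2.78 and 25.3, and its mean difference between IKKb and MiG was 0.04 ± 0.64 (SD, n = 5; exact p = 1).

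**Figure D5:**
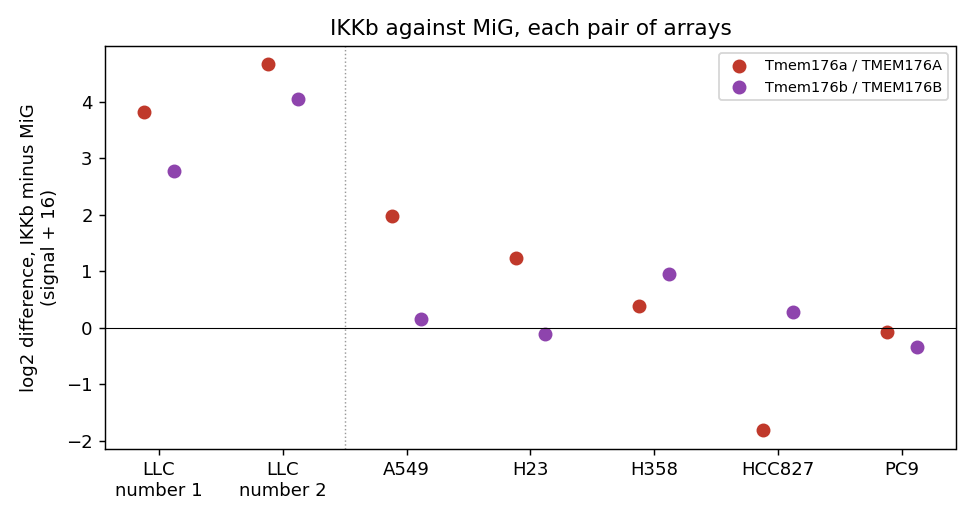
IKKb minus MiG difference (log2 of signal plus 16) for Tmem176a or TMEM176A (red) and Tmem176b or TMEM176B (purple), for each LLC array number and each human line. The 4 LLC points lie between 2.78 and 4.67, the human TMEM176B points between -0.34 and 0.95, and the TMEM176A points run from -1.82 in HCC827 to 1.97 in A549.

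NF-kB feedback genes were read on the same human arrays. TNFAIP3, which encodes the NF-kB inhibitor A20, was above MiG with IKKb in every line, by 3.40 in HCC827, 3.33 in H358, 1.11 in A549, 0.72 in PC9 and 0.45 in H23. RELB was higher by 2.32 in H358, 1.16 in HCC827, 0.75 in A549, 0.61 in H23 and 0.53 in PC9. ICAM1 was higher by 2.53 in HCC827, 1.83 in H358, 1.12 in PC9, 0.82 in H23 and 0.25 in A549. NFKBIA was higher by 1.96 in H358 and 1.73 in HCC827, but only by 0.22 in PC9, 0.21 in A549 and 0.09 in H23. Of the 11 feedback genes tested 9 were higher with IKKb than with IkB_SR in limma, where 0.599% of all genes were, and their median was 2.16. Against MiG 0 of 11 were called for either vector.

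The human neighbours gave 0 calls among 12 tested genes in each of the 3 comparisons. For IKKb against MiG they ran from -0.31 for KCNH2 to 1.02 for GIMAP5, with a median of 0.07, and for IKKb against IkB_SR the median was 0.16. The 10 inflammasome genes tested and the 2 MS4A genes tested, MS4A1 and MS4A6A, also gave 0 calls in each comparison, as did the 6 genes of the RORγt and dendritic cell list, the 6 fibroblast and endothelial markers and the 9 epithelial markers tested. Among leukocyte markers 2 of 8 were higher with IKKb than with IkB_SR (0.599% of all genes were), ITGAM by 1.72 (adjusted p = 0.0326) and ADGRE1 by 1.14 (adjusted p = 0.0435). The summed signal of the leukocyte list was 1299 to 12214 with IKKb and 614 to 2145 with IkB_SR, against 1140 to 5879 with MiG. Without CD74, which read 11692 with IKKb and 1491 with IkB_SR against 5283 with MiG in HCC827, the sums were 522 to 1769 with IKKb and 562 to 1439 with IkB_SR, against 596 to 1383 with MiG. The part of these markers in the human values of the pair was not tested.

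TMEM176B differed between the cell lines. Averaged over the 3 vectors its signal was 75.1 ± 28.6 in H358, 65.7 ± 3.64 in H23, 59.3 ± 15.4 in HCC827, 37.3 ± 6.71 in PC9 and 10.2 ± 5.41 in A549 (SD, n = 3 arrays each). The 3 arrays of a line are 1 per vector, so p-values between lines measure only the spread between such arrays. The limma F test between lines gave 13.1 (adjusted p = 0.000195). In that comparison 86.9% of all genes were called, so a difference between lines is the rule on these arrays. A549 decided the test of TMEM176B: without A549 its F statistic was 2.49 (adjusted p = 0.130). The A549 arrays also stood apart by the Dap control, at 127 with MiG, 123 with IkB_SR and 134 with IKKb. On the other human arrays Dap read 611 to 2716, so the line and this difference between arrays cannot be told apart. A549 was lower than H358 by a log2 difference of -1.76 (adjusted p = 8.56e-05, a pair in which 31.5% of genes were called lower) and lower than H23 by -1.66 (adjusted p = 0.000148, 31.3% of genes). It was lower than HCC827 by -1.52 (adjusted p = 0.000315, 29.1% of genes) and lower than PC9 by -1.04 (adjusted p = 0.00586, 28.4% of genes). Because A549 was dim on every array, the levels relative to its 40th percentile are bounds, at least 1.79-fold higher in H358, 1.66-fold in H23 and 1.46-fold in HCC827, with no fold for PC9. Neighbours in the order above A549 did not differ past the threshold, at adjusted p = 0.774 for H358 and H23, 0.703 for H23 and HCC827 and 0.172 for HCC827 and PC9. H358 was higher than PC9 by 0.73 (adjusted p = 0.0426), where 29.4% of genes were called higher. On the MiG arrays these lines were alike, at 44.6 in H358 and 44.8 in PC9. The gap lay on the IKKb (101 against 31.9) and IkB_SR (79.3 against 35.1) arrays. The H358 IKKb array stood apart from its line by the Dap control, and this pair was not tested without it. For TMEM176A, which did not pass the filter, the F statistic without a filter was 1.35 (adjusted p = 0.349).

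The signals of the 2 human genes showed little correlation with each other. Because TMEM176A was above the 40th percentile on 4 of 15 arrays and TMEM176B on 11, this does not show that the genes vary apart. Across the 15 arrays, which share lines and vectors, the correlation of TMEM176A with TMEM176B was -0.063, and -0.036 with the mean of each line subtracted. The genes most like TMEM176B over the 15 arrays were RAB3GAP1 (Pearson r = 0.943), CDC42SE1 (0.931) and QTMAN (0.916). With line means subtracted they were ST6GALNAC4 (0.898) and CLEC2L (0.878). For TMEM176A the closest genes were GUCA2A (0.723) over all arrays and LIPJ (0.91) with line means subtracted. These are the highest of 15184 correlations for TMEM176B and of 15185 for TMEM176A, and they describe these arrays only.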

How the data were processed

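The 19 arrays measured RNA as biotin-labelled cRNA on Affymetrix arrays, per the labels. The deposited values are one intensity per probe set, a linear signal that the authors computed with GCOS 1.4 and MAS5, per the submitters' processing notes. Trimming 2 percent at either end left a mean of 500 to 500.1 on each array, so scaling removes any difference in total RNA. MAS5 signals near background are noisy, and precision is limited by the number of arrays.

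Probe sets were named through the platform annotation. Of 54675 human probe sets 41097 name 1 gene, 1801 several and 11777 none, and of 45101 mouse probe sets 34958 name 1, 932 several and 9211 none. Probe sets naming 1 gene were tested, the brightest per gene, as log2(signal + 16). A gene was tested if its signal exceeded the array's 40th percentile on 5 or more human arrays (15185 genes) or 2 or more mouse arrays (12555 genes). Tests were those of limma 3.58.1 in R 4.3.3 (intensity trend, two-sided, Benjamini-Hochberg over all genes, threshold 0.05), with the cell line as a block in the human fit and no block in the LLC fit. The human numbers are the lines, so same-numbered arrays are paired by line. Same-numbered LLC arrays deviated together across genes (correlation 0.53, a single value), but no label explains the numbers, so a pairing was not assumed. The fits were tested on simulated data, in which the human fit recovered most changed genes and the LLC fit missed the small changes and many of the large ones. On the measured human arrays, IKKb against MiG gave 0 calls among 11 NF-kB feedback genes, whose median difference was 1.15. A count of 0 calls in the human lines therefore does not show that genes did not change. Other values and figures were made in Python 3.11.15 with matplotlib 3.10.9.

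The named genes were all probe sets of the members, fixed lists of relatives, neighbours, inflammasome, feedback and cell type genes, the extremes of those lists, the genes next in rank in LLC and the most correlated genes. The members and lists were chosen with earlier results of these data known. The at-least folds (against the 40th percentile of arrays on which a gene was dim), the leukocyte sums without CD74, the values without the H358 IKKb array and the genes named singly from lists other than their extremes were chosen after values were seen. The alternatives changed the pseudocount (1 or 64), the scaling (quantile or median), the filter (absent, or set at the 60th percentile), the summary per gene (averaged probe sets), the eBayes prior (no trend, or robust), the block (left out, or added in LLC) and the arrays fitted (only the compared vectors, or each line or LLC array left out). Promoter windows are from RefSeq (GRCh38.p14). Mouse promoters and the proteins were not used here.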

Additional observations from a re-analysis of the deposited data

Results flagged for a closer look

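In each group of 5 human arrays of 1 vector, a value stood apart when its gap to the nearest other value exceeded 0.71 of the range on the log2(signal + 16) scale (Dixon's 95% limit). Of 18 groups of member signals and differences 4 did so, where chance gives about 1 in 20. TMEM176A in the MiG arrays was highest in HCC827, at 91.47. TMEM176B (220532_s_at) in the MiG arrays was lowest in A549, at 5.94. The dim TMEM176B probe set 236348_at was highest in A549 with IKKb, at 25.34, and highest in PC9 with MiG, at 16.48.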

How the results depend on the processing

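The direction of Tmem176a and Tmem176b in LLC held under all 14 alternatives run, at 3.75 to 4.73 for Tmem176a (3.75 with averaged probe sets) and 2.63 to 4.203 for Tmem176b. Leaving out 1 LLC array gave 3.76 to 4.73 for Tmem176a and 2.63 to 4.203 for Tmem176b, the lowest without MiG 2 and the highest without MiG 1. The number of LLC genes past the threshold was 3 and did not hold: it was 0 with averaged probe sets, with no trend, with median centring, with quantile normalisation, and with the filter either absent or at the 60th percentile, and the cause was not tested. With the replicate block it was 222. It ran from 4 to 142 when 1 array was left out (142 without MiG 2, 39 without MiG 1, 7 without IKKb 2), where the lone array is assumed to vary like the other group.

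TMEM176B passed the threshold in none of its 3 comparisons under any alternative in which it was tested, and it did not pass the filter at the 60th percentile. IKKb against MiG ran from -0.01 (without H358) to 0.32, IkB_SR against MiG from 0.17 to 0.51, and IKKb against IkB_SR from -0.27 to -0.05. The numbers of human genes past the threshold for IKKb against IkB_SR, 140, became 86 without a filter, 44 with averaged probe sets, 21 without a trend, 15 with the compared vectors only, 0 with no replicate block, and 24 to 128 with 1 line left out (24 without PC9, 31 without HCC827, 66 without H23). The count for IKKb against MiG was 1 with averaged probe sets. That for IkB_SR against MiG was 0 to 8 with 1 line left out (8 without H358). The F statistic of TMEM176B between lines ran from 2.49 to 17.4 with 1 line left out, was 3.78 with the mean of its probe sets (adjusted p = 0.0369), and passed in all alternatives run but that without A549.

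Signal over background limits the human values, none of which reached the 60th percentile of its array. The LLC values rest on 2 arrays per vector that differ by up to 3.05 times within MiG.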

Other observations

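The log2 difference of LLC array number 1 minus number 2 was at least as high as that of Tmem176b in 2864 of 12555 genes with IKKb. With MiG it was so in 62 of 12555. Genes as far apart in the other direction are not counted. Cd82, a tetraspanin that suppresses metastasis, and Tnfrsf9, a co-stimulatory receptor of the TNF family, stood at 2.41 and 2.40 in LLC, beside Ccl2, which encodes a monocyte-attracting chemokine, at 2.42.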
